A study of Mus musculus with 16 samples.

Results

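The 47 genes described here act in G2 phase and mitosis, and were taken as a fixed list of symbols from a table of 46078 genes. Each of the 47 symbols matched 1 row of the table, and all 47 passed the filter on low counts, which kept 16101 genes in all. No measured value enters the rule of the list. It holds 3 genes of transcription and proliferation marking (Mki67, Foxm1, Mybl2), 6 cyclins, kinase and phosphatases of mitotic entry, 5 other mitotic kinases, 2 partners of Aurora B, 4 genes of the spindle checkpoint, 2 of the anaphase-promoting complex, 7 of the centromere and kinetochore, 6 of spindle motors and their helpers, 6 of cytokinesis and 6 of chromosome condensation.

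A cell enters mitosis when cyclin B and its kinase Cdk1 are switched on by Cdc25 phosphatases and Plk1. Chromosomes are then packed by condensins and topoisomerase II, attached to the spindle at kinetochores and watched by the spindle checkpoint until Cdc20 activates the anaphase-promoting complex, after which cytokinesis divides the cell. Most of these genes are transcribed late in the cell cycle by the MuvB, B-Myb and FoxM1 factors and are nearly silent in resting cells, so in a tumour their RNA comes mainly from dividing cells. In bulk RNA, fewer dividing cells and less of a transcript per cell cannot be told apart.

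B16F10-GP is a pigmented mouse melanoma line that was grafted in 25% Matrigel into the flanks of female C57BL/6 mice aged 6 to 8 weeks. The study asked how QH-II-066, a drug given to enhance GABA-A receptors of the melanoma cells, acts with radiation. Bulk tumour RNA was sequenced in 16 libraries, 4 in each of 4 groups. The 5 Gy group received 5 Gy of X-rays once, on day 10, on the right flank under a bolus of 0.5 cm, and no drug. The QH-II-066 group received 10 mg/kg by intraperitoneal injection daily for 7 days from day 10, and no radiation. The combined group was irradiated with 5 Gy on the morning of day 10 and began the same drug course that evening. The control group is labelled untreated, while the protocol speaks of vehicle. All groups carried the same graft in the same strain and sex. The labels state neither which flank the profiled tumour came from nor that libraries came from separate mice, so a p-value here reflects only how far these libraries spread, which may be technical.

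Totals ran from 6994198 counts in combined replicate 4 to 40799942 in combined replicate 1, and every one of the 47 genes had at least 60 counts in each library. The 15 melanocyte genes used as a measure of melanoma content were all detected in each group and summed to between 18473 and 29087 CPM, which matches the label of a pigmented tumour. CPM is a gene's count scaled to a common library total. Skin transcripts set 5 libraries apart, 5 Gy replicates 2 and 4 and combined replicates 2, 3 and 4, with summed levels of the 15 skin genes reaching 4428 CPM in 5 Gy tumours, 25.4 in QH-II-066 tumours, 1869 in combined tumours and 7.70 in untreated tumours. Of the 15 skin genes, those at 0 in all libraries of a group numbered 1 in 5 Gy, 6 in QH-II-066, 1 in combined and 7 in untreated tumours. Summed fibroblast transcripts ran from 2505 to 5319 CPM in 5 Gy tumours, from 631 to 1585 in QH-II-066 tumours, from 811 to 2338 in combined tumours, and from 599 to 905 in untreated tumours. Muscle transcripts summed to at most 3723 CPM in 5 Gy, 1582 in QH-II-066 (replicate 4), 1513 in combined and 156 in untreated tumours. Adipocyte transcripts reached 934, 1825, 463 and 199 CPM in the 5 Gy, QH-II-066, combined and untreated groups. Macrophage transcripts ran from 1557 to 3042 CPM in 5 Gy, from 904 to 1677 in QH-II-066, from 944 to 2021 in combined and from 537 to 1518 in untreated tumours. Results were refitted without the 5 skin libraries and with the skin or muscle score as a covariate, and the slopes also with the fibroblast score, while the part of adipocyte and macrophage transcripts was not tested. The refit without the skin libraries kept combined replicate 1 alone and replicates 1 and 3 of the 5 Gy group. Its values for combined tumours therefore rest on 1 library.

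Per base of exon, the 47 genes covered a wide range of levels. On the RPKM scale (CPM divided by exon length in kilobases, mean over 16 libraries), the highest was Bub3, a checkpoint protein with other roles outside mitosis, at 113 RPKM. Cdk1, the kinase of mitotic entry, followed at 75.8 RPKM, then Mad2l1 at 65.4, Ccnb2 at 63.8, Top2a at 59.5 and Birc5 at 57.2 RPKM. The lowest were the kinesin Kif18a at 1.91 RPKM and the centromere protein gene Cenpi at 2.51 RPKM. The spread of log2 CPM between libraries of a group had a median SD of 0.23 over the 47 genes, against 0.24 over the 8295 tested genes in the same range of level. It was smallest for Incenp, at 0.11, and largest for Kif20a, a kinesin of the cleavage furrow, at 0.70.

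What the genes share outside their roles can be read in the letters of their promoters. RefSeq windows of GRCm38.p6, 300 bases that span a gene's start and lie mostly before it, were found for 39 of the 47 genes, in 42 windows. The cell cycle genes homology region (CHR), TTTGAA or its reverse complement TTCAAA, is the element at which the MuvB factors sit, and the CCAAT box, CCAAT or ATTGG, is bound by NF-Y. Neither motif's letters contain the other. A CHR was present in 30 of the 42 windows (71.4%), against 17.9% of 32851 windows of all genes. A CCAAT box was present in 33 of 42 (78.6%), against 37.4% of all windows, and both were present in 27 of 42 (64.3%), against 6.95%. Shown here are the windows of the B cyclins, of their kinase Cdk1 and of Cdc20, which triggers cyclin B destruction. Levels and slopes of Ccnb1, Cdk1 and Cdc20 are given in the results below, and Ccnb2 is shown as the other B cyclin. Capitals mark both motifs on either strand, and a match is a description of the letters only.
Ccnb1: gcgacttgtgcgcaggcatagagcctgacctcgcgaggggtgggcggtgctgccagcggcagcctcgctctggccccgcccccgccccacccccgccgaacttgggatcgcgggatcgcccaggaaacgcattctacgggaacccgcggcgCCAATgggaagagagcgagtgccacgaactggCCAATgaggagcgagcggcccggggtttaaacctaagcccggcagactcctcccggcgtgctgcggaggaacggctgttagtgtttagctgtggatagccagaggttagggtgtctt
Ccnb2: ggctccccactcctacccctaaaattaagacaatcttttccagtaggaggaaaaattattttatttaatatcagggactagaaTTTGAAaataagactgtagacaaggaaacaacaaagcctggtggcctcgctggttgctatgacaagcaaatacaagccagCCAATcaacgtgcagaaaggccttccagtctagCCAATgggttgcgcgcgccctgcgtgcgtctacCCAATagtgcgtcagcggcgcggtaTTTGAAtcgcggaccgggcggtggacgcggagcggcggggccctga
Cdk1: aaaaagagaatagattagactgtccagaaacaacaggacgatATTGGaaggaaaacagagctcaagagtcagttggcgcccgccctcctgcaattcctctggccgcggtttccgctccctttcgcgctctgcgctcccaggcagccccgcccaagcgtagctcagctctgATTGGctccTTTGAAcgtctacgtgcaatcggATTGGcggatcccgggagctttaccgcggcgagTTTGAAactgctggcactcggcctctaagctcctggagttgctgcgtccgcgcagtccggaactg
Cdc20: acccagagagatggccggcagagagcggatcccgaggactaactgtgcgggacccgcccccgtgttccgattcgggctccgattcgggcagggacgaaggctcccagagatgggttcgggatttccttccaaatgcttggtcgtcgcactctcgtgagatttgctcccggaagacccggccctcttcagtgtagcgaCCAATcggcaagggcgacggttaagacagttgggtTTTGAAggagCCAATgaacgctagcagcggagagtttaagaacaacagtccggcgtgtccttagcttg
In GRCm38.p6 these windows lie, all on the minus strand, at chr13:100786437-100786736 for Ccnb1, chr9:70421505-70421804 for Ccnb2, chr10:69352863-69353162 for Cdk1 and chr4:118437294-118437593 for Cdc20. The Ccnb1 window holds 2 CCAAT boxes and none of the CHR letters searched. Ccnb2 and Cdk1 each hold 2 CHR and 3 CCAAT matches, and Cdc20 holds 1 CHR and 2 CCAAT matches.

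In none of the treatment comparisons did a mitosis gene pass the test, which was edgeR's quasi-likelihood test with Benjamini-Hochberg adjustment over the 16101 genes and a threshold of 0.05. The comparisons with untreated tumours share those 4 libraries, so their values are set side by side only. In 5 Gy against untreated tumours 0 of 47 passed, against 1.26% of all genes (1.25% higher and 0.00621% lower), and 0 of 47 had an unadjusted p under 0.05. Log2 fold changes lay between -0.37 and 0.07, with a median of -0.13 beside -0.08 for all genes. Of the 47, 45 were below 0, beside 61.8% of all genes. But the median of the 47 turned positive, 0.20, when libraries were scaled to the melanocyte list and 0.17 with the melanocyte score as a covariate. Leaving out 5 Gy replicate 2 gave a median of -0.07, and leaving out untreated replicate 3 gave -0.03. DESeq2 and limma-voom also called 0 of 47.

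In QH-II-066 against untreated tumours 0 of 47 passed by edgeR, against 0% of all genes. Log2 fold changes lay between -0.74 and 0.32, with a median of -0.18 beside 0.01 for all genes, and 40 of 47 were below 0. At an unadjusted p under 0.05 there were 6 genes, all lower, a share to be read against 5.03% of all genes lower, 3.14% higher and 8.17% in either direction. DESeq2 called 0 and limma-voom with sample weights called 17 of 47, all lower, in a fit that called 28.7% of all genes. The median was -0.12 without untreated replicate 3.

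In combined against untreated tumours 0 of 47 passed by edgeR, against 0% of all genes, and 0 by DESeq2 or limma-voom. The median log2 fold change was -0.27 beside -0.00 for all genes, with a range of -0.66 to 0.46 and 41 of 47 below 0. At an unadjusted p under 0.05 there were 17 genes, all lower, against 8.80% of all genes lower and 7.44% higher. The smallest adjusted p among the 47 was 0.298 here, 0.546 for QH-II-066 and 0.432 for 5 Gy. Without the 5 skin libraries the medians against untreated tumours were -0.05 for 5 Gy, -0.18 for QH-II-066 and -0.35 for combined tumours, and edgeR called 0 of 47 in each. With the skin score as a covariate they were -0.07, -0.18 and -0.20, also with 0 called.

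**Figure D1:**
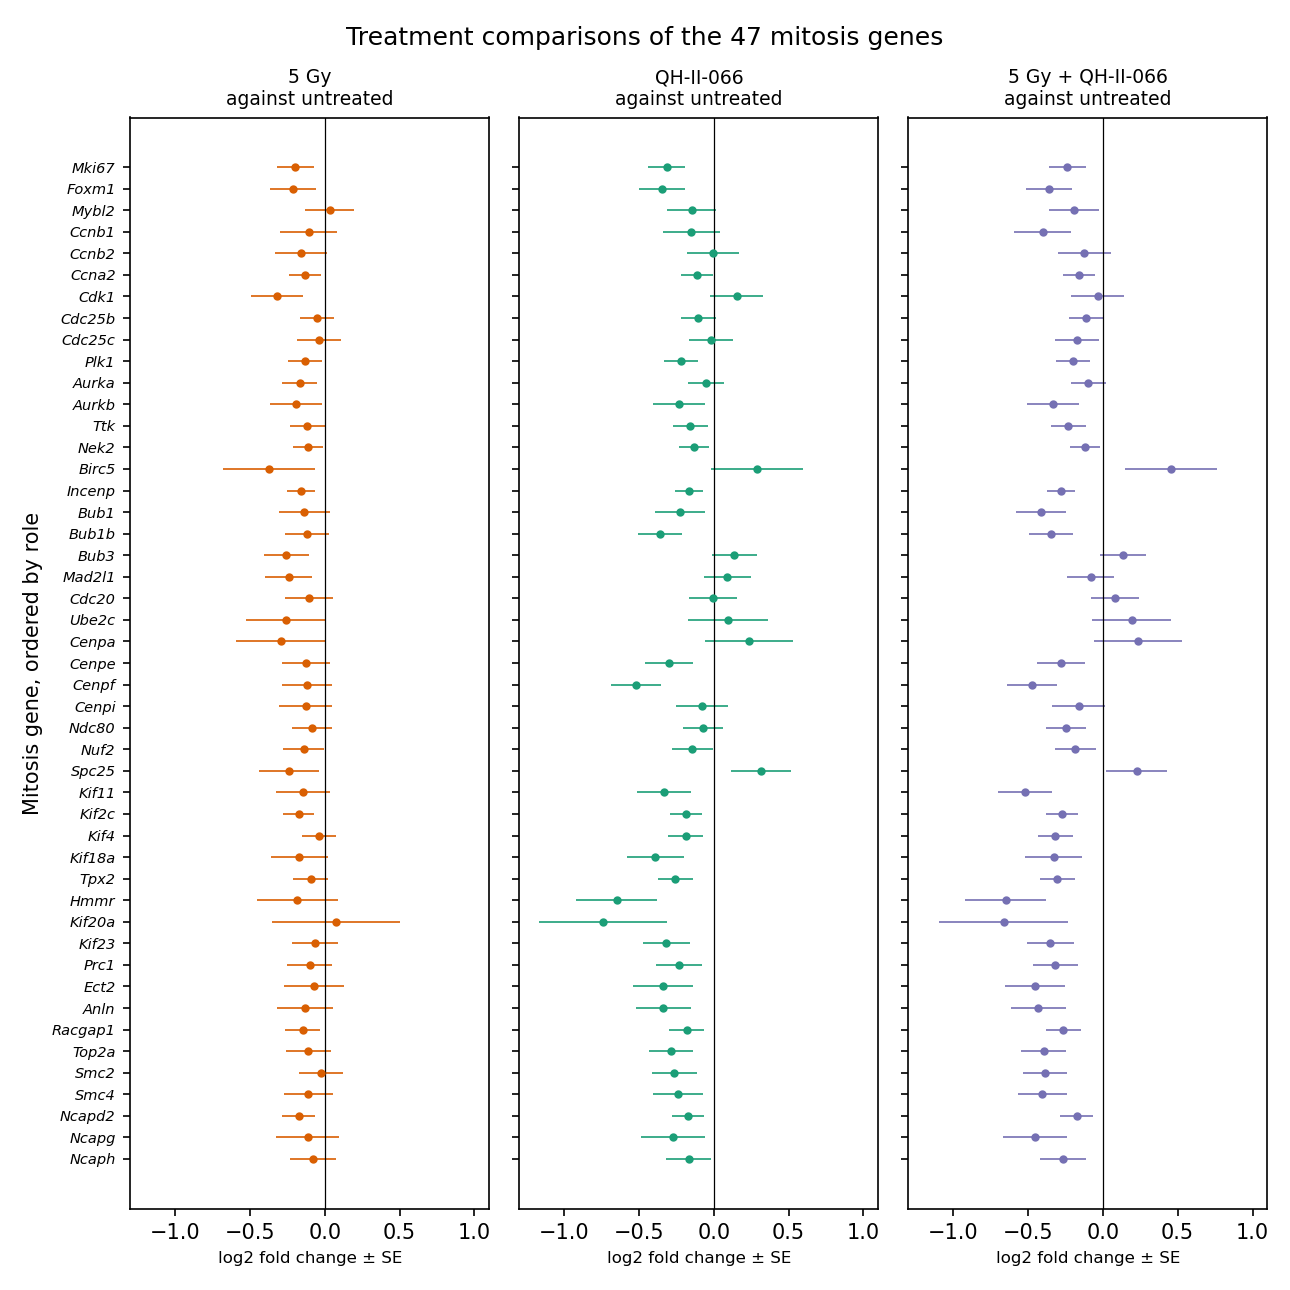
Log2 fold changes (points) with SE (bars) of the 47 mitosis genes, ordered by role from top to bottom, in 5 Gy, QH-II-066 and combined tumours, each against the same 4 untreated libraries (edgeR). No value passed the adjusted threshold. Medians were -0.13, -0.18 and -0.27, of which the first turned positive with melanocyte-list scaling (0.20) or a melanocyte covariate (0.17).

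Within the list, the signs differed by role under TMM scaling, the only scaling run by role. In combined against untreated tumours, the 6 genes of cytokinesis (median -0.39), the 6 of condensation (median -0.39) and the 6 of spindle motors (median -0.32) were all below 0. An unadjusted p under 0.05 was reached by 4, 3 and 5 genes of these groups, all lower, against 8.80% of all genes. The 5 mitotic kinases (median -0.20) were also below 0, with 0 at an unadjusted p under 0.05. By contrast both genes of the anaphase-promoting complex were above 0 (median 0.14), as were 1 of 4 checkpoint genes, 2 of 7 centromere genes and 1 of the 2 Aurora B partners. Role went in part with exon length. Cdc20 and Ube2c of the anaphase-promoting complex had 1868 and 2600 exon bases, while no gene of condensation or spindle motors had under 4307. In the same comparison 5 of the 16 shortest genes of the list were above 0, against 0 of 15 of middle length and 1 of the 16 longest. The part of length in the differences by role was not tested. In QH-II-066 against untreated tumours the same 3 groups were all below 0 (medians -0.33, -0.25 and -0.30), with 0, 0 and 2 genes at an unadjusted p under 0.05, against 5.03% of all genes lower.

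Among the transcription factors and the proliferation marker, Mki67 (ENSMUSG00000031004, chr7:135689788-135716379, minus strand, mm10) encodes the protein Ki-67, which coats mitotic chromosomes. Mki67 had 359, 291, 279.7 and 289.6 CPM in replicates 1 to 4 of the 5 Gy group, 289, 279, 284 and 272 in QH-II-066 tumours, 290.0, 303, 282 and 309.6 in combined tumours, and 330.2, 360.4, 429 and 278 in untreated tumours. Untreated replicate 3 was the highest of all and the 4 QH-II-066 libraries lay close together, but the groups overlapped, since untreated replicate 4 was below every QH-II-066 library but replicate 4. Its log2 fold change in combined against untreated tumours was -0.24 ± 0.12 (SE, edgeR adjusted p = 0.321). Mki67 was also the gene of the 47 with the smallest p for the interaction of radiation and drug, at 0.27 ± 0.17 (edgeR adjusted p = 0.850). Without untreated replicate 3 these values were -0.12 and 0.16, and with scaling to the melanocyte list -0.07 and 0.0088.

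Foxm1 (ENSMUSG00000001517, chr6:128362967-128375893, plus strand, mm10) encodes the forkhead factor that drives transcription of mitotic genes. In 5 Gy tumours Foxm1 stood at 131, 107, 104 and 127 CPM, in QH-II-066 tumours at 104, 108, 122 and 92.8, in combined tumours at 86.9, 125, 121 and 90.1, and in untreated tumours at 129, 140.4, 164 and 109. Combined replicates 1 and 4 were the lowest, and the untreated and combined groups overlapped. The log2 fold change in combined against untreated tumours was -0.36 ± 0.15 (SE, edgeR adjusted p = 0.298). That value lay between -0.64, without the skin libraries (combined replicate 1 alone), and -0.16, with the gene length slope as a covariate. Mybl2, which encodes B-Myb, was near 30 CPM in every group, with means of 30.1 ± 3.31 in 5 Gy, 26.5 ± 3.23 in QH-II-066, 25.6 ± 6.70 in combined and 29.4 ± 2.76 CPM in untreated tumours (SD, n = 4 each).

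Of the drivers of mitotic entry, Ccnb1 (ENSMUSG00000041431, chr13:100778650-100786570, minus strand, mm10) encodes cyclin B1. Levels of Ccnb1 were 138, 104, 127 and 131 CPM in 5 Gy, 132, 122, 129 and 103 in QH-II-066 and 93.1, 133, 120.2 and 59.8 in combined tumours, against 133, 131, 156 and 118 in untreated tumours. Combined replicate 4, the shallowest library and one with skin transcripts, was the lowest by far, and untreated replicate 3 the highest. The log2 fold change in combined against untreated tumours was -0.40 ± 0.19 (SE, edgeR adjusted p = 0.308). It was -0.22 without combined replicate 4 and also with limma-voom. In combined against QH-II-066 tumours Ccnb1 had the smallest p of the 47 genes, at -0.25 ± 0.19 (edgeR adjusted p = 1), and it was -0.41 without combined replicate 2, -0.07 without combined replicate 4 and 0.03 with limma-voom.

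Cdk1 (ENSMUSG00000019942, chr10:69336635-69352938, minus strand, mm10) encodes the kinase that cyclin B activates. Its libraries held 222, 177, 262 and 201 CPM after 5 Gy, 394, 283, 232 and 285 with QH-II-066, 307, 268, 240.5 and 233 with both, and 275, 223, 240.3 and 336 in untreated tumours. Its 5 Gy libraries included the 3 lowest of the 16, and QH-II-066 replicate 1 was the highest, with overlap between all groups. In 5 Gy against untreated tumours the log2 fold change was -0.32 ± 0.18 (SE, edgeR adjusted p = 0.432), the smallest p of the 47 genes in that comparison. It was -0.19 without untreated replicate 4, -0.15 without the skin libraries, -0.11 with the skin covariate and -0.01 with scaling to the melanocyte list. In combined against untreated tumours it was -0.03 ± 0.18 (edgeR adjusted p = 0.922). It turned positive, at 0.11, when libraries were scaled to the melanocyte list and, at 0.20, without the 5 skin libraries (combined replicate 1 alone). The other 4 genes of entry were the cyclin genes Ccnb2 and Ccna2 and the phosphatase genes Cdc25b and Cdc25c, none of which separated the groups in any comparison made. Ccna2, for example, averaged 171 ± 16.4 in 5 Gy, 174 ± 17.3 in QH-II-066, 168 ± 9.65 in combined and 188 ± 20.4 CPM in untreated tumours (SD, n = 4 each).

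Plk1 (ENSMUSG00000030867, chr7:122159437-122169875, plus strand, mm10) encodes a kinase of spindle assembly and mitotic entry. Plk1 had 106, 80.2, 97.9 and 98.2 CPM in replicates 1 to 4 of the 5 Gy group, 97.8, 92.4, 86.0 and 84.8 in QH-II-066 tumours, 81.2, 90.7, 108 and 85.4 in combined tumours, and 99.0, 95.8, 107 and 117 in untreated tumours. At or above the lowest untreated library, 95.8 CPM, lay 3 of the 5 Gy, 1 of the QH-II-066 and 1 of the combined libraries. The log2 fold change in combined against untreated tumours was -0.20 ± 0.11 (SE, edgeR adjusted p = 0.342). It lay between -0.36, without the skin libraries (combined replicate 1 alone), and -0.04, with limma-voom.

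Aurkb (ENSMUSG00000020897, chr11:69045647-69051664, plus strand, mm10) encodes Aurora B, the kinase that corrects chromosome attachment. In 5 Gy tumours Aurkb stood at 101, 77.7, 92.8 and 91.7 CPM, in QH-II-066 tumours at 89.9, 91.0, 91.3 and 81.2, in combined tumours at 69.5, 103, 105 and 51.4, and in untreated tumours at 101, 106, 109.8 and 98.0. All QH-II-066 libraries lay below all untreated libraries, while combined libraries lay on both sides, with replicates 2 and 3 inside the untreated range and replicates 1 and 4 far below it. The log2 fold change in combined against untreated tumours was -0.33 ± 0.17 (SE, edgeR adjusted p = 0.324). It was -0.17 without combined replicate 4, -0.12 with limma-voom and -0.57 without the skin libraries (combined replicate 1 alone). Aurka, Ttk and Nek2, kinases of the spindle poles, the checkpoint and the centrosome, had overlapping groups in every comparison made.

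Aurora B works in a complex with the proteins of Incenp and Birc5. Incenp (ENSMUSG00000024660, chr19:9872297-9899533, minus strand, mm10) encodes the scaffold that activates the kinase. Levels of Incenp were 102, 88.1, 97.8 and 99.2 CPM in 5 Gy, 99.2, 88.7, 96.5 and 101 in QH-II-066 and 91.5, 92.4, 94.6 and 77.9 in combined tumours, against 122, 101, 107 and 103 in untreated tumours. Both drug groups lay wholly below the untreated group, though by a small margin, and 5 Gy replicate 1 was inside the untreated range. In combined against untreated tumours Incenp had the smallest p of the 47 genes, with a log2 difference of -0.28 ± 0.09 (SE, edgeR adjusted p = 0.298), and the adjusted p lay between 0.0954 and 0.691 over the 30 other settings tried. The difference was -0.14 with scaling to the melanocyte list.

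Birc5 (ENSMUSG00000017716, chr11:117849251-117855743, plus strand, mm10) encodes survivin, which also restrains cell death. Its libraries held 128, 106, 182 and 134 CPM after 5 Gy, 332, 200.1, 131 and 208 with QH-II-066, 314, 174, 170.1 and 321 with both, and 162, 137, 139 and 276 in untreated tumours. It ran against most of the list, with the highest values in QH-II-066 replicate 1 and in combined replicates 1 and 4, while combined replicate 4 held the lowest value of 27 of the 47 genes. In combined against 5 Gy tumours it had the smallest p of the 47 genes, with a log2 difference of 0.83 ± 0.31 (SE, edgeR adjusted p = 0.211), and the adjusted p over the 30 other settings lay between 0.0555 and 0.792. The difference was 0.52 with limma-voom and 0.21 with the gene length slope as a covariate. Combined replicates 2 and 3 lay inside the 5 Gy range, so the groups overlapped.

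In the spindle checkpoint, Bub1 (ENSMUSG00000027379, chr2:127801122-127831865, minus strand, mm10) encodes a kinase that marks unattached kinetochores. Bub1 had 117, 81.9, 104 and 108 CPM in replicates 1 to 4 of the 5 Gy group, 104, 102, 94.4 and 85.5 in QH-II-066 tumours, 70.2, 106, 95.8 and 65.6 in combined tumours, and 109, 110.1, 142 and 90.3 in untreated tumours. Combined replicates 1 and 4 were the lowest of the 16 and untreated replicate 3 the highest, and all groups overlapped. Mad2l1, whose protein binds and holds Cdc20, had 5 Gy libraries of 112 to 142 CPM, all below the untreated range of 143 to 161 CPM, and was the only gene of the 47 to do so, against 3.13% of all genes. The gene was named after its values were seen. Bub1b and Bub3 had overlapping groups in every comparison with untreated tumours.

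Cdc20 (ENSMUSG00000006398, chr4:118432901-118437352, minus strand, mm10) encodes the activator of the anaphase-promoting complex, the enzyme that destroys cyclin B. In 5 Gy tumours Cdc20 stood at 74.4, 64.3, 94.5 and 77.2 CPM, in QH-II-066 tumours at 104, 85.1, 62.9 and 81.3, in combined tumours at 101, 84.3, 84.1 and 84.7, and in untreated tumours at 75.7, 73.2, 80.7 and 105. Within every group its values spanned more than the differences between group means, which were 77.6 ± 12.5 in 5 Gy, 83.3 ± 16.8 in QH-II-066, 88.4 ± 8.19 in combined and 83.6 ± 14.5 CPM in untreated tumours (SD, n = 4 each). Ube2c, the ubiquitin-conjugating enzyme of the same complex, ranged from 86.0 to 228 CPM in QH-II-066 tumours and from 118 to 207 CPM in untreated tumours.

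At the kinetochore, Cenpf (ENSMUSG00000026605, chr1:189640606-189688086, minus strand, mm10) encodes a very large protein that tethers dynein, from the gene with the greatest exon length of the 47 (15433 bases). Levels of Cenpf were 98.4, 67.5, 68.6 and 76.3 CPM in 5 Gy, 55.1, 58.4, 69.4 and 52.6 in QH-II-066 and 49.6, 69.4, 66.1 and 57.8 in combined tumours, against 78.0, 87.3, 108 and 64.1 in untreated tumours. The QH-II-066 libraries were low, with replicate 3 alone inside the untreated range of 64.1 to 108 CPM, and combined replicates 2 and 3 lay inside it too. In QH-II-066 against untreated tumours Cenpf had the smallest p of the 47 genes, at a log2 difference of -0.52 ± 0.17 (SE, edgeR adjusted p = 0.546), with an adjusted p between 0.0140 and 1 over the 30 other settings and a call in 1 of them, limma-voom. It was -0.27 with the gene length slope as a covariate.

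Spc25 (ENSMUSG00000005233, chr2:69193895-69206194, minus strand, mm10) encodes a subunit of the Ndc80 complex, which grips microtubules. Its libraries held 60.7, 55.0, 78.1 and 61.9 CPM after 5 Gy, 137, 90.7, 66.2 and 82.7 with QH-II-066, 107, 86.3, 73.4 and 86.9 with both, and 70.4, 66.0, 68.6 and 97.3 in untreated tumours. It was highest in QH-II-066 replicate 1 and lowest in 5 Gy replicate 2, and the groups overlapped. Its partners Ndc80 and Nuf2 averaged 51.1 ± 11.3 and 60.1 ± 12.1 CPM in combined tumours, against 60.9 ± 3.52 and 68.3 ± 5.17 CPM in untreated tumours (SD, n = 4 each). Cenpa, the histone H3 variant that marks centromeres, ran from 57.2 to 174 CPM within QH-II-066 tumours. Cenpe and Cenpi, of the kinetochore's motor and its inner plate, had overlapping groups in every comparison made.

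Of the spindle motors and their helpers, Kif11 encodes the kinesin that pushes the poles apart. Kif11 had 149, 109, 119 and 111 CPM in replicates 1 to 4 of the 5 Gy group, 119, 95.5, 119.7 and 92.4 in QH-II-066 tumours, 77.5, 119, 104 and 74.6 in combined tumours, and 150.1, 119.9, 165 and 104 in untreated tumours. Kif4 encodes a chromosome-bound kinesin. In 5 Gy tumours Kif4 stood at 56.7, 45.3, 48.3 and 53.5 CPM, in QH-II-066 tumours at 46.0, 45.1, 47.6 and 45.0, in combined tumours at 38.7, 48.4, 46.9 and 33.5, and in untreated tumours at 54.0, 50.2, 55.9 and 49.2. For Kif4 both drug groups lay below all untreated libraries, while for Kif11 untreated replicate 4 lay inside both drug groups. Tpx2 encodes the activator of Aurora A. Levels of Tpx2 were 167, 136, 153 and 154 CPM in 5 Gy, 134, 139, 143 and 128 in QH-II-066 and 109.9, 151, 146 and 121 in combined tumours, against 162, 161, 186 and 143 in untreated tumours. Hmmr encodes a spindle-pole protein that binds hyaluronan outside the cell as well. Its libraries held 78.3, 55.2, 49.7 and 62.8 CPM after 5 Gy, 35.0, 47.4, 56.9 and 38.9 with QH-II-066, 29.9, 62.1, 56.3 and 29.3 with both, and 71.6, 70.0, 93.5 and 44.1 in untreated tumours. In each of these, combined replicates 1 and 4 were the lowest pair of the combined group and untreated replicate 3 was the highest or, for Kif4, the second highest library. Kif2c and Kif18a, kinesins that shorten microtubules, had group means of 46.6 ± 6.27 and 17.3 ± 4.02 CPM in combined tumours, against 56.4 ± 3.99 and 21.8 ± 5.16 CPM in untreated tumours (SD, n = 4 each).

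For cytokinesis, Kif23 encodes a motor of the central spindle. Kif23 had 80.7, 63.7, 68.9 and 73.5 CPM in replicates 1 to 4 of the 5 Gy group, 55.3, 58.2, 67.9 and 59.5 in QH-II-066 tumours, 46.6, 74.0, 68.6 and 45.7 in combined tumours, and 75.1, 75.5, 86.2 and 63.4 in untreated tumours. Prc1 encodes the bundler of its microtubules. In 5 Gy tumours Prc1 stood at 176, 141, 152 and 158 CPM, in QH-II-066 tumours at 140.4, 143, 158 and 131, in combined tumours at 114, 157, 156 and 113, and in untreated tumours at 163, 174, 209 and 127. The untreated group was spread the most for Prc1, where replicate 4 lay below all 5 Gy libraries. Ect2 encodes the exchange factor that starts the contractile ring. Levels of Ect2 were 106, 84.6, 88.6 and 97.7 CPM in 5 Gy, 78.3, 72.7, 90.1 and 71.0 in QH-II-066 and 59.8, 95.7, 82.2 and 49.9 in combined tumours, against 97.4, 97.0, 132 and 68.6 in untreated tumours. Anln encodes anillin, a scaffold of that ring. Its libraries held 164, 125, 128 and 141 CPM after 5 Gy, 119.6, 126, 134 and 104 with QH-II-066, 94.4, 139, 136 and 83.2 with both, and 135, 167, 194 and 115 in untreated tumours. For Ect2 and Anln untreated replicate 3 was the highest and combined replicate 4 the lowest library. Racgap1, the partner of Kif23, ranged from 162 to 223 CPM in combined tumours and lay wholly below its untreated range of 224 to 245 CPM. Kif20a, the most variable of the list, averaged 58.8 ± 12.7 in 5 Gy, 33.4 ± 18.01 in QH-II-066, 35.1 ± 17.9 in combined and 55.8 ± 22.7 CPM in untreated tumours (SD, n = 4 each).

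For chromosome condensation, Top2a (ENSMUSG00000020914, chr11:98992943-99024189, minus strand, mm10) encodes topoisomerase II alpha, which disentangles sister DNA. Top2a had 670.2, 524, 508 and 562 CPM in replicates 1 to 4 of the 5 Gy group, 482, 486, 566 and 473 in QH-II-066 tumours, 418, 566, 499 and 379.9 in combined tumours, and 601, 590.1, 751 and 505 in untreated tumours. Combined replicates 1 and 4 were the lowest and untreated replicate 3 the highest, with overlap between all groups. Its log2 fold change in combined against untreated tumours was -0.39 ± 0.15 (SE, edgeR adjusted p = 0.298), against -0.22 with the gene length slope as a covariate. Ncaph encodes a subunit of condensin I. In 5 Gy tumours Ncaph stood at 77.4, 64.0, 75.8 and 73.6 CPM, in QH-II-066 tumours at 70.0, 67.1, 70.8 and 65.5, in combined tumours at 57.4, 81.2, 73.8 and 42.4, and in untreated tumours at 75.3, 75.5, 84.5 and 71.8. All QH-II-066 libraries lay below all untreated libraries for Ncaph. Smc2, the core subunit of both condensins, lay between 86.8 and 112 CPM in combined tumours, below the 5 Gy range of 113 to 145 CPM, and was the only gene of the 47 to lie wholly below in that comparison, against 3.97% of all genes.

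**Figure D2:**
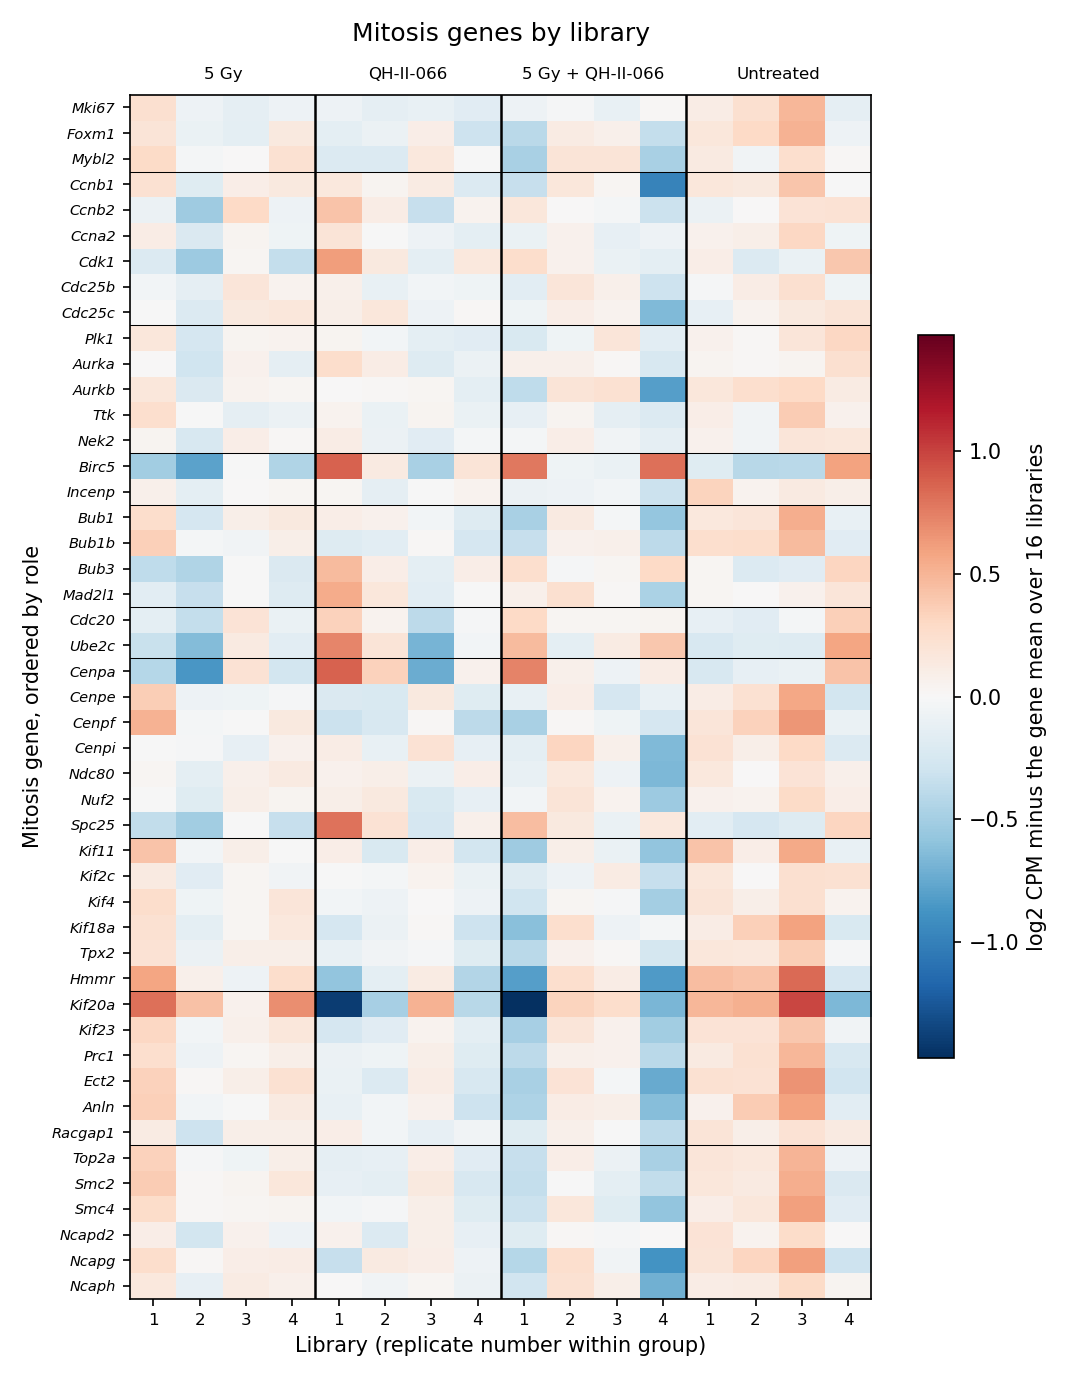
Each row is a mitosis gene (grouped by role) and each column a library. Colour is log2(CPM + 0.1) minus the gene's mean over the 16 libraries, from -1.47 to 0.99. Untreated replicate 3 held the highest value of 31 genes and combined replicate 4 the lowest of 27, and a few rows (Birc5, Cenpa, Spc25, Ube2c, Cdk1, Bub3) run against the rest.

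Some genes had groups that did not overlap. Against untreated tumours they were 1 of 47 for 5 Gy (Mad2l1), 4 for QH-II-066 (Aurkb, Kif4, Incenp and Ncaph) and 3 for combined tumours (Kif4, Incenp and Racgap1), all lower in the treated group. Over all genes the shares wholly below were 3.13%, 1.55% and 1.69%. Between combined and 5 Gy tumours there was 1, lower in combined tumours (Smc2), against 3.97% of all genes wholly below and 4.45% wholly above. Between combined and QH-II-066 tumours there were 0, against 0.621% and 1.29%.

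The other comparisons gave no call by edgeR either. In combined against 5 Gy tumours 0 of 47 passed (edgeR, 0% of all genes), with a median of -0.14 beside -0.06 for all genes, and 3 genes higher and 2 lower at an unadjusted p under 0.05, against 11.6% and 7.90% of all genes. DESeq2 and limma-voom called 0. The median was -0.28 without the skin libraries (combined replicate 1 alone), -0.22 without combined replicate 2, -0.06 without combined replicate 4 and -0.09 without 5 Gy replicate 1. With the melanocyte score as a covariate, however, 19 of 47 were called, all lower, beside 9.03% of all genes called in either direction (median -0.29). With scaling to the melanocyte list 16 were called, all lower, beside 4.16% of all genes in either direction (median -0.34 beside -0.25 for all genes). In the main fit of this comparison 11 of 15 melanocyte genes were above 0 (median 0.31), beside 3 of 10 tested lineage genes (median -0.05). No treatment comparison was refitted with the lineage list. In combined against QH-II-066 tumours 0 passed by edgeR, DESeq2 or limma-voom and 0 had an unadjusted p under 0.05, against 0.882% of all genes lower, 2.77% higher and 3.65% in either direction. The median of -0.07 turned to 0.05 with limma-voom. It was 0.0089 without combined replicate 4, -0.04 without combined replicate 1, -0.14 without combined replicate 2, -0.13 without combined replicate 3 and -0.17 without the skin libraries (combined replicate 1 alone).

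For the interaction, which takes the change of combined from 5 Gy tumours and subtracts the change of QH-II-066 from untreated tumours, 0 of 47 passed by edgeR, DESeq2 or limma-voom, and 0 had an unadjusted p under 0.05 by edgeR, against 5.40% of all genes below 0, 1.56% above and 6.96% in either direction. Its median of 0.06 turned negative with melanocyte-list scaling (-0.21), with a melanocyte covariate (-0.16) and without the skin libraries (-0.12). The last of these fits held combined replicate 1 alone. The median was -0.0081 without combined replicate 2 and -0.0051 without combined replicate 3. A test of any difference among the 4 groups called 0 of 47 by edgeR, with 1 at an unadjusted p under 0.05 against 17.8% of all genes, while DESeq2 called 0 and limma-voom 14, in a fit that called 30.2% of all genes.

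Pooled over drug, irradiated against unirradiated tumours gave 0 of 47 by edgeR, DESeq2 and limma-voom, against 1.40% of all genes by edgeR, and 0 at an unadjusted p under 0.05, against 1.89% of all genes lower and 9.51% higher. Cdk1 had the smallest p, with -0.25 ± 0.12 (SE, edgeR adjusted p = 0.469), against -0.05 without the skin libraries, -0.01 with the skin covariate and -0.06 with scaling to the melanocyte list. The median of the 47 was -0.10, with 46 below 0, beside -0.05 for all genes, of which 60.4% were below 0. The median of the 47 became 0.08 with scaling to the melanocyte list and 0.06 with the melanocyte covariate, and was -0.06 without 5 Gy replicate 2 and also without untreated replicate 3.

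Pooled over radiation, drug-treated against drug-free tumours gave the largest number of low p-values, although 0 of 47 passed by edgeR (0% of all genes). At an unadjusted p under 0.05 there were 15 lower and 3 higher, against 13.9% and 12.2% of all genes. The median log2 difference was -0.18 beside -0.01 for all genes, with 37 of 47 below 0. Cenpf again had the smallest p, at -0.44 ± 0.12 (SE, edgeR adjusted p = 0.141), with an adjusted p between 0.00976 and 1 over the 30 other settings and a call in 4 of them. It was -0.17 with the gene length slope as a covariate. DESeq2 called 8 of 47, all lower, among 7.25% of all genes, and limma-voom called 16 lower and 4 higher among 30.7% of all genes. With the melanocyte score as a covariate edgeR called 22, all lower, among 16.01% of all genes, and without untreated replicate 4 it called 9 lower and 3 higher among 17.5% of all genes. With the gene length slope as a further covariate beside the melanocyte score, a setting added after the data had been seen, 0 of 47 passed and the median was -0.19, with 45 of 47 below 0. Without the skin libraries, where the combined group held replicate 1 alone, the median was -0.27.

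The drug difference varied with exon length. In drug-treated against drug-free tumours the 16 shortest genes (1541 to 3728 exon bases) had a median log2 difference of 0.01 with 9 above 0. The 15 of middle length (3796 to 5421 bases) had a median of -0.23 with 0 above 0, and the 16 longest (5431 to 15433 bases) had a median of -0.23 with 1 above 0. All tested genes in the same 3 ranges of length had medians of 0.07, -0.08 and -0.19, with 58.7%, 37.2% and 23.4% above 0, so longer genes were lower among all genes too. In 5 Gy against untreated tumours the 3 classes of mitosis genes had medians of -0.16, -0.11 and -0.13. The slope of each library's deviation on gene length over all well-expressed genes averaged -0.09 ± 0.16 in QH-II-066 and -0.09 ± 0.12 in combined tumours, against 0.11 ± 0.11 in 5 Gy and 0.07 ± 0.18 in untreated tumours (log2 CPM per doubling of length, SD, n = 4 each). With that slope as a covariate the drug median was -0.08, with 41 of 47 below 0 and 1 at an unadjusted p under 0.05.

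**Figure D3:**
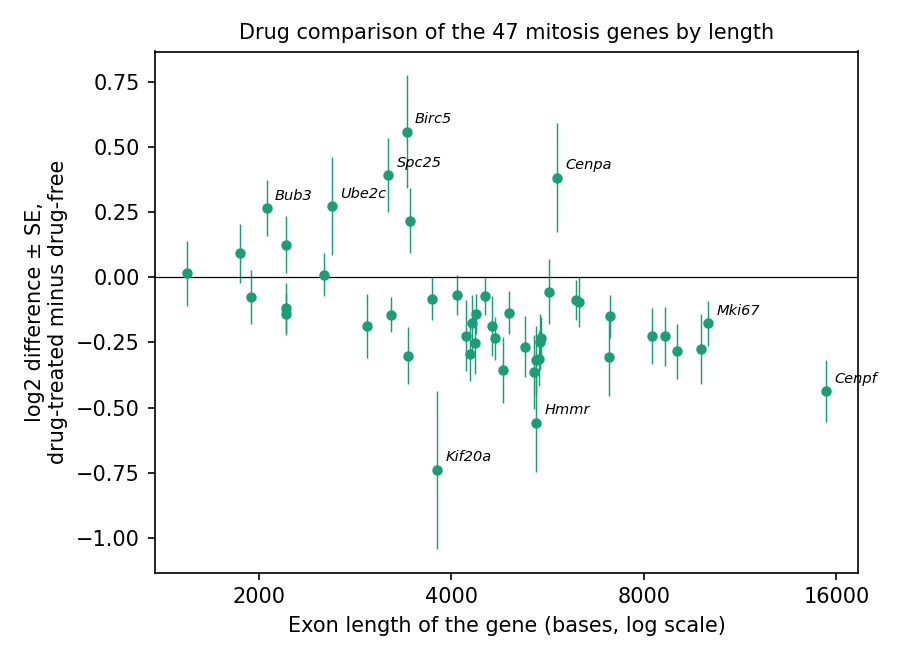
Log2 difference of drug-treated from drug-free tumours (points, with SE) for the 47 mitosis genes against exon length on a log axis (bases). The points above 0 are mostly genes of the shortest class, 9 of 16, against 0 of 15 of middle length and 1 of the 16 longest, and none passed the adjusted threshold.

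Read as a whole, the mitosis score (the mean log2 CPM of the 47 genes) averaged 6.49 ± 0.13 in 5 Gy, 6.45 ± 0.07 in QH-II-066, 6.38 ± 0.19 in combined and 6.62 ± 0.12 in untreated tumours (SD, n = 4 each). The libraries at the ends were untreated replicate 3, at 6.80, and combined replicate 4, at 6.15. The lowest score of the 5 Gy group was that of replicate 2, at 6.31, and 41 of 47 genes lay below their own mean there. The melanocyte score averaged 8.93 ± 0.13 in 5 Gy, 9.16 ± 0.08 in QH-II-066, 9.11 ± 0.26 in combined and 9.25 ± 0.12 in untreated tumours (SD, n = 4 each).

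Set against melanoma content, the order of the groups depended on the marker list. The mitosis score minus the melanocyte score lay between -2.52 and -2.39 in 5 Gy tumours, above all 12 other libraries, between -2.73 and -2.69 in QH-II-066, between -2.85 and -2.63 in combined and between -2.68 and -2.60 in untreated tumours. All QH-II-066 libraries lay narrowly below all untreated libraries on this scale. With the melanoma lineage list instead, a choice made after the data had been seen, the difference was lowest in 5 Gy tumours, at 0.40 ± 0.22, against 0.51 ± 0.14 in QH-II-066, 0.42 ± 0.24 in combined and 0.63 ± 0.15 in untreated tumours (SD, n = 4 each), with overlap between all groups. In 5 Gy against untreated tumours all 15 melanocyte genes were below 0 (median -0.35). Of 10 tested lineage genes 6 were below 0 and 1 was called higher by edgeR, against 1.25% of all genes. These differences of scores are descriptions, and they carry no test. Fibroblast content, whose score was 6.52 ± 0.45 in 5 Gy, 5.18 ± 0.47 in QH-II-066, 5.49 ± 0.68 in combined and 4.49 ± 0.38 in untreated tumours, was highest in the same group, and its part in this difference was not tested.

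**Figure D4:**
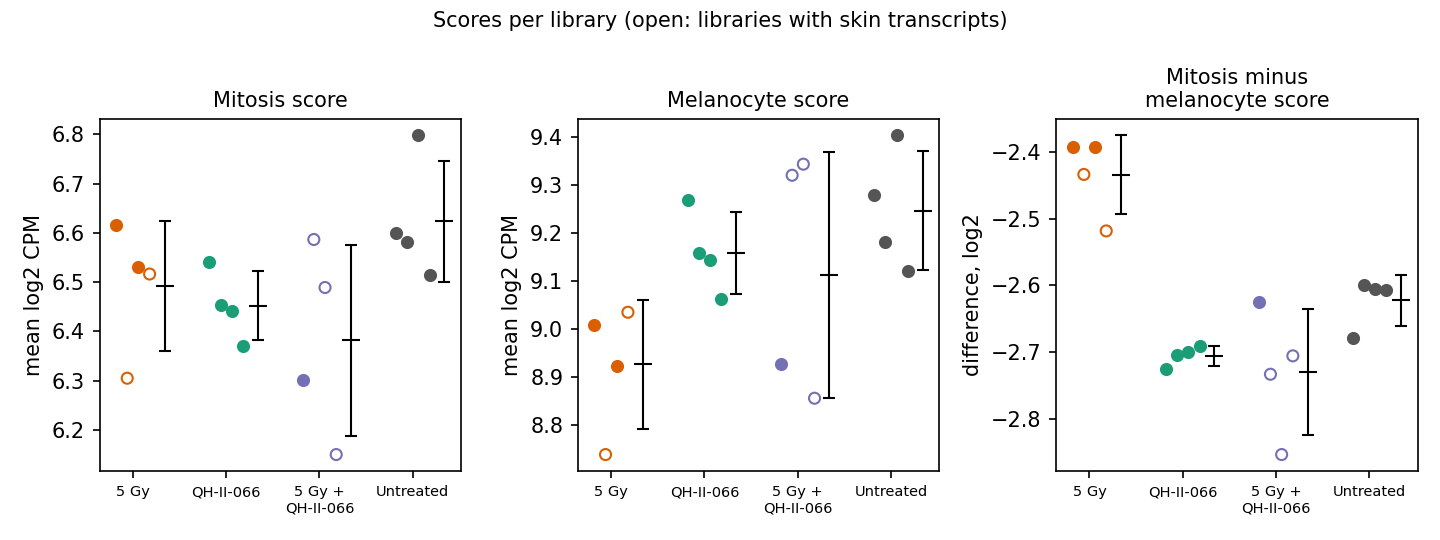
Mitosis score, melanocyte score and their difference (log2 CPM) in each library, with group mean and SD (bars). Open points are the 5 libraries with skin transcripts. In the right panel the 4 tumours of the 5 Gy group lie between -2.52 and -2.39, above the other 12, whereas with the melanoma lineage list their mean was the lowest of the 4 groups (0.40, against 0.63 in untreated tumours).

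Within treatment groups, mitosis genes moved with the melanocyte score. When each gene's slope on the score was fitted beside the 4 group means, 22 of 47 genes rose with it (46.8%) and 0 fell (edgeR adjusted p under 0.05), against 6.07% of all genes that rose. The median slope was 0.82 log2 CPM per unit of score, beside 0.02 for all genes, with 41 of 47 above 0, and it was -0.05 with the melanoma lineage list in place of the melanocyte list. Markers of some other cell types fell with the same score, namely 10 of 15 macrophage genes (median slope -2.57), 8 of 13 T cell genes (-3.11) and 8 of 15 fibroblast genes (-2.03), against 5.37% of all genes. In 4 further lists 0 of 14 tested skin genes (-3.24), 0 of 14 muscle genes (-2.87), 1 of 10 adipocyte genes (-3.95) and 0 of 5 erythroid genes (0.82) fell, and 0 rose. Of the 15 melanocyte genes that make up the score, 6 rose and 0 fell (median slope 0.65), against 6.07% of all genes that rose. Among 10 tested melanoma lineage genes 2 rose and 1 fell (0.20). The part of macrophage and T cell transcripts in the mitosis slopes was not tested. The score shares no gene with the list, but both come from the same libraries and share their depth and scaling. Within groups, 39 of 47 genes were above their group mean in 5 Gy replicate 1 and 0 in 5 Gy replicate 2, 41 in combined replicate 2 and 6 in combined replicate 4, and 37 in untreated replicate 3 and 14 in untreated replicate 4. Melanocyte scores stood above the group mean by 0.08, 0.21 and 0.16 in the first of each of these pairs and below it, at -0.19, -0.25 and -0.12, in the second.

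The number called depended on a few libraries. It was 0 without the 5 skin libraries (median slope 0.75), in a fit that called 0% of all genes. It was 3 without combined replicate 2, 9 without combined replicate 3, 10 without combined replicate 4 and 11 without untreated replicate 3. It was also 0 with the replicate number as a block (median 0.80), where the count over all genes was 0 too. With the fibroblast score as a covariate, a setting added after the data had been seen, it was 0 (median 0.92). It was 2 with no group terms (median 0.55) and 11 with no filter on low counts (median 0.81). With the melanoma lineage list in place of the melanocyte list the count was 0 and the median slope -0.05. Under the other settings between 16 and 32 genes were called. Among these, DESeq2 and limma-voom each called 25, all rising, against 9.21% and 10.1% of all genes that rose.

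**Figure D5:**
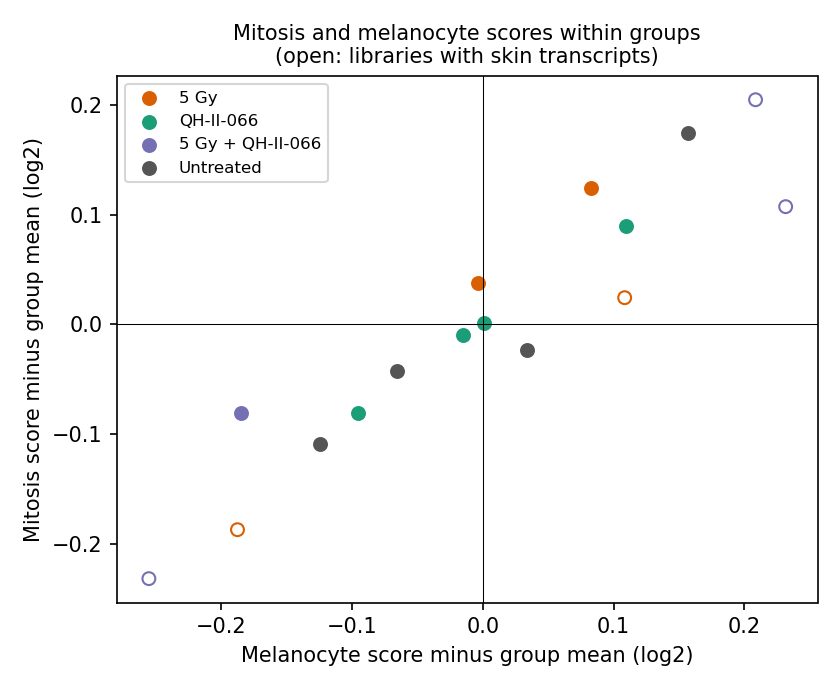
Each point is a library: the horizontal axis is its melanocyte score and the vertical axis its mitosis score (log2), each minus the mean of its group. Open points hold skin transcripts and lie at both ends. No test is attached to the plot.

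The smallest p-values belonged to Bub1, with a slope of 1.45 ± 0.21 (SE, edgeR adjusted p = 0.00609), Ccnb1, with 1.59 ± 0.27 (edgeR adjusted p = 0.00672), and Aurkb, with 1.41 ± 0.26 (edgeR adjusted p = 0.00831). Over the 31 other settings, 1 of which was the main fit with a wider threshold, Bub1 and Aurkb were called in 27 each and Ccnb1 in 26. That 1 setting repeats the main values, so it is no separate fit. The slopes of Ccnb1 (-0.12) and Aurkb (-0.06) turned negative with the melanoma lineage list. Foxm1 rose with a slope of 1.08 ± 0.26 (edgeR adjusted p = 0.0218) and Top2a with 0.98 ± 0.28 (edgeR adjusted p = 0.0372). These 2 were called in 23 and 13 of the 31 other settings.

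Other members of the fixed set did not pass. Plk1 had a slope of 0.58 ± 0.24 (SE, edgeR adjusted p = 0.122) and Mki67 of 0.31 ± 0.30 (edgeR adjusted p = 0.496). Nearest to 0 were Cdc20, at -0.04 ± 0.41, Cdk1, at 0.08 ± 0.45, and Spc25, at -0.19 ± 0.52. Their standard errors exceeded the slopes, and each changed sign in 7 or more of the 31 other settings. With the gene length slope as a covariate Cdk1 passed, at 0.71 (edgeR adjusted p = 0.0329), as did Cdc20, at 0.56 (edgeR adjusted p = 0.0370), and Plk1, at 0.75 (edgeR adjusted p = 0.0229). Spc25 did not, at 0.54 (edgeR adjusted p = 0.135). Cdk1 and Cdc20 were each called in 1 of the 31 other settings. Ccnb1 and its kinase Cdk1 had slopes of 1.59 and 0.08, or 1.57 and 0.71 with the length covariate, differences that were not tested.

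By role, and against 6.07% of all genes, the genes that rose with the score were 5 of 6 of cytokinesis, 4 of 6 of spindle motors, 4 of 6 of condensation, 2 of 3 of transcription and Ki-67, 2 of 4 of the checkpoint, 2 of 6 of mitotic entry, 2 of 7 of the centromere and 1 of 5 mitotic kinases. None of the 2 Aurora B partners or the 2 genes of the anaphase-promoting complex passed. By length, 3 of the 16 shortest, 10 of the 15 middle and 9 of the 16 longest genes rose, against 5.33%, 8.44% and 8.63% of all tested genes in the same ranges of length.

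Other genes of the cell cycle were read from lists that share no gene with the 47. Of 89 further mitosis genes, all tested, 0 passed in any treatment comparison by edgeR, whereas DESeq2 called 12 in drug-treated against drug-free tumours (1 higher and 11 lower), in a fit that called 7.25% of all genes. Limma-voom called 39 there (16 higher and 23 lower), with 30.7% of all genes, and 30 in QH-II-066 against untreated tumours (5 higher and 25 lower), with 28.7% of all genes. With the melanocyte score 22 rose and 0 fell by edgeR, against 6.07% of all genes that rose. The smallest p-values there belonged to Zwilch, of the checkpoint complex at kinetochores (slope 2.31, edgeR adjusted p = 0.0103), Cenpn (1.91, adjusted p = 0.0109), Spag5, a spindle protein (1.54, adjusted p = 0.0116), and cyclin F, Ccnf (0.87, adjusted p = 0.0154). Unadjusted p-values under 0.05 in combined against untreated tumours were found for 20 of these 89, all lower, against 8.80% of all genes, and the median log2 fold change was -0.20.

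Of 46 genes of G1, S phase and DNA replication, 0 passed in the treatment comparisons by edgeR, against up to 6 by DESeq2 (5 higher and 1 lower) and up to 18 by limma-voom (11 higher and 7 lower), both in drug-treated against drug-free tumours, where these tools called 7.25% and 30.7% of all genes. With the melanocyte score 11 of the 46 rose, against 6.07% of all genes that rose. They were led by Chaf1a (slope 1.67, edgeR adjusted p = 0.0116), Mcm2 (0.97, adjusted p = 0.0122), Rrm1 (0.96, adjusted p = 0.0147) and Prim1 (1.40, adjusted p = 0.0190), genes of chromatin assembly, the replicative helicase, nucleotide supply and primase. In 5 Gy against untreated tumours all 46 had a log2 fold change below 0 (median -0.23), beside 61.8% of all genes (median -0.08). This was under TMM scaling, the only scaling run for this list in edgeR. At an unadjusted p under 0.05 there were 3 of the 46, all lower, against 2.81% of all genes. Of 22 CDK inhibitors and regulators of G1, 1 rose in irradiated against unirradiated tumours, Sfn, at 3.98 (edgeR adjusted p = 0.0439), against 1.40% of all genes. DESeq2 called 3 higher there, 4 higher in 5 Gy and 2 higher in combined against untreated tumours, with 4.96%, 7.60% and 1.28% of all genes called. Limma-voom called 0 in irradiated against unirradiated tumours and 2 higher in 5 Gy against untreated tumours, with 0.0373% and 4.91% of all genes called. In QH-II-066 against untreated tumours it called 2 higher and 5 lower, with 28.7% of all genes. For the interaction it called 1 higher and 1 lower, with 3.06% of all genes. In drug-treated against drug-free tumours it called 2 higher and 4 lower, with 30.7% of all genes. Sfn encodes 14-3-3 sigma, which is abundant in epidermis. The refit without the 5 skin libraries kept 5 Gy replicates 1 and 3 and combined replicate 1 as its only irradiated libraries. It cannot decide the part of skin transcripts in the Sfn call, which was not tested. With the melanocyte score, Rbl1 and E2f4 rose (slopes 1.25 and 0.99) and Btg2 and Cdkn1c fell (slopes -2.07 and -6.39), against 6.07% of all genes that rose and 5.37% that fell. None of the slope calls in these lists held without the 5 skin libraries, where 0 of all genes were called.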

How the data were processed

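Per the labels' protocols, RNA extracted from tumours was prepared by transcriptome capture, which enriches coding fragments with probes, and sequenced on an Illumina HiSeq2500. The submitters' processing notes name STAR 2.4.1a, featureCounts, edgeR and the build mm10. The command kept in the deposited table, per the file headers, ran version 1.6.0 of featureCounts on read pairs and gave no strand setting, so fragments of overlapping or antisense genes cannot be told apart. The deposited values are raw counts per gene, with no normalization, beside the exon length of each gene. Of 46078 genes, 45143 had a symbol.

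From these counts, levels of single genes were computed as CPM after TMM scaling, and RPKM from the exon lengths. Summed levels of marker lists are CPM of the raw library totals, without TMM scaling. Counts entered 1 edgeR 4.0.16 model of 4 group means (R 4.3.3, filterByExpr, robust quasi-likelihood test, two-sided, Benjamini-Hochberg over 16101 genes). Scores are mean log2 CPM of a list with a prior count of 2. The slope on the melanocyte score was tested beside the group means. The script was tested on simulated data. A count of 0 would allow up to 3 counts in a library, and such limits cover counting error only. Totals of 6994198 to 40799942 counts set the precision.

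The genes, lists and comparisons were chosen with earlier results of these data known. Values per library are given for 7 fixed genes, for the gene with the smallest p in each comparison, for genes past the threshold (the 12 with the smallest p) and for the 3 slopes with the smallest p and the 3 nearest to 0. From other lists up to 4 genes of smallest p are named. Alternatives were RLE scaling, DESeq2 1.42.0, limma-voom (limma 3.58.1) with sample weights, other filters, a wider threshold, the compared groups alone, a replicate block, covariates (melanocyte, skin, muscle, gene length slope), scaling to the melanocyte list, another marker list, no group terms, the libraries without skin transcripts, and each library left out. The wider threshold, an adjusted p under 0.1, was applied to the main fit, so its values for single genes repeat the main ones.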

Additional observations from a re-analysis of the deposited data

Results flagged for a closer look

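Among 100 groups of 4 libraries examined, 6 held a library whose gap to the nearest of the others took up more of the group's range than Dixon's 95% critical value for 4 samples allows. Chance alone flags about 1 in 20 groups. Mki67, the Ki-67 gene, stood at 359 CPM in 5 Gy replicate 1, against 279.7 to 291 CPM in the other 5 Gy libraries. Top2a, topoisomerase II alpha, stood at 566 CPM in QH-II-066 replicate 3, against 473 to 486 CPM in the others of that group. Aurkb, the Aurora B gene, stood at 81.2 CPM in QH-II-066 replicate 4, below the 89.9 to 91.3 CPM of the others. Cdc20, the activator of the anaphase-promoting complex, stood at 101 CPM in combined replicate 1, above the 84.1 to 84.7 CPM of the others. Spc25, of the Ndc80 complex, stood at 97.3 CPM in untreated replicate 4, above the 66.0 to 70.4 CPM of the others. The mitosis score minus the melanocyte score was -2.68 in untreated replicate 1, below the -2.61 to -2.60 of the other untreated libraries.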

How the results depend on the processing

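Over the 8 treatment comparisons and the test of any group, 258 of 266 alternative fits called 0 of the 47 genes. The exceptions were limma-voom (17 in QH-II-066 against untreated tumours, 20 in drug-treated against drug-free tumours, 14 for any group), DESeq2 (8 in drug-treated against drug-free tumours), the melanocyte covariate (19 in combined against 5 Gy tumours, 22 in drug-treated against drug-free tumours), scaling to the melanocyte list (16 in combined against 5 Gy tumours) and leaving out untreated replicate 4 (12 in drug-treated against drug-free tumours). With each library left out in turn, the drug-treated count ran from 0 to 12 and the slope count from 3 to 26. The slope count of 22 became 11 with no filter, 2 with no group terms, and 0 without the skin libraries, with the melanoma lineage list and with the fibroblast covariate, the last added after the data had been seen. Without the skin libraries the slope count over all genes was 0 too. The cause of these changes was not tested.

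With the replicate number as a block the slope count was 0, as was the count over all genes, and no treatment count changed from 0. Deviations of same-numbered libraries from their group means had a median correlation of -0.043 (24 pairs, from -0.78 to 0.56), against -0.054 for other pairs (72). Medians over so wide a range cannot show whether equal numbers mark a shared batch, which was not tested.

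Some genes near 0 changed sign. The Cdk1 fold change in combined against untreated tumours became 0.018 with limma-voom, 0.24 with the skin covariate, 0.051 with the muscle covariate, 0.20 without the skin libraries (combined replicate 1 alone), 0.11 scaled to the melanocyte list, and 0.016 to 0.088 in 3 fits without 1 library (-0.12 to 0.088 over all such fits). Ccnb1 in combined against QH-II-066 tumours became 0.029 with limma-voom. The Cdk1 slope became -0.0071 with limma-voom, -0.075 without the skin libraries, -0.64 with the melanoma lineage list, -0.098 with the fibroblast covariate and -0.19 to -0.11 in 3 fits without 1 library (-0.19 to 0.35 over all such fits). The Cdc20 slope became 0.093 with the replicate block, 0.56 with the length covariate, 0.11 with no group terms, 0.52 with length and skin covariates together (added after the data had been seen) and 0.0016 to 0.19 in 5 fits without 1 library (-0.31 to 0.19 over all such fits). The Spc25 slope became 0.54 with the length covariate, 0.14 without the skin libraries, 0.33 with no group terms, 0.51 with length and skin covariates and 0.038 to 0.071 in 3 fits without 1 library (-0.52 to 0.071 over all such fits). With the melanoma lineage list the slopes of Ccnb1, Plk1 and Aurkb became -0.12, -0.34 and -0.060, and with length and skin covariates that of Mki67 became -0.0051. The mitosis score minus the melanoma score in 5 Gy against untreated tumours, 0.19 with the melanocyte list, became -0.23 with the lineage list, a choice added after the data had been seen.

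Scaling to the melanocyte list moved the median of all genes to 0.24 in 5 Gy against untreated tumours, 0.13 in combined against untreated tumours, -0.25 in combined against 5 Gy tumours, -0.25 for the interaction and 0.14 in irradiated against unirradiated tumours. Combined replicate 4, with 6994198 counts, is the shallowest library and held the lowest value of 27 of the 47 genes.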
